A study of Homo sapiens with 6 samples.

Results

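Sphingosine phosphate is a signalling lipid made inside cells by the sphingosine kinases SPHK1 and SPHK2, moved out of the cell by transporters such as SPNS2 and MFSD2B, and removed by dephosphorylation or by irreversible cleavage through the lyase SGPL1. Outside the cell it acts through the S1PR receptors, and in blood its export keeps a gradient that guides the traffic of lymphocytes. The rows described here are 10 of the 34371 in the count table: the vector sequence named SPNS2_optimized and 9 native genes, namely SPNS2, SPNS1, SPNS3, MFSD2B, ABCC1, SPHK1, SPHK2, SGPL1 and PLPP3. They were taken by name, through the Ensembl gene ID of each row, and each name had 1 row.

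The cells were ME-1, a human acute myeloid leukaemia line with the CBFB::MYH11 fusion. Of 6 libraries of polyadenylated RNA, 3 came from cells carrying an empty vector and 3 from cells carrying a vector for SPNS2; both groups had been transduced and selected. The empty vector libraries are the controls. The labels do not give the vector's promoter, the agent used for selection or whether the libraries of a group were separate cultures, so a p-value here reflects spread among these 6 libraries alone, and that spread may be technical. The comparison asks how added SPNS2 changed expression, here among the genes that make, move and degrade its substrate.

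Library totals ranged from 28605187 to 38489992 counts, at which 0 counts in a library allow a level of up to 0.0779 to 0.105 CPM (counts relative to the size of the library; this limit covers counting error only). The myeloid marker MPO stood at 26140 ± 221 CPM in controls and 26003 ± 759 CPM in SPNS2 cells (SD, n = 3 each), and 7 of 8 myeloid leukaemia markers had a mean of at least 1 CPM. Of these 8 markers, 2 were called higher and 2 lower by edgeR (adjusted p under 0.05). Over all 13308 features tested, 11.9% were called higher and 12.6% lower. KIT rose by 0.55 and PTPRC by 0.26 on the log2 scale, while CD33 fell by 0.71 and CD34 by 0.25. The marker under 1 CPM was MYH11, with 0.180 ± 0.0912 CPM in controls and 0.225 ± 0.188 CPM in SPNS2 cells (SD, n = 3 each), although the fusion named for this line contains a part of that gene. Of markers for other cells, the summed level per library was 9.71 to 10.7 CPM for T and NK cells, 2.78 to 3.81 CPM for B cells, and 2.91 to 4.26 CPM for fibroblasts or endothelium. Within the T and NK sum, CD3E rose from 0.494 ± 0.104 to 0.892 ± 0.0298 CPM and CD8A fell from 3.66 ± 0.485 to 2.27 ± 0.339 CPM (SD, n = 3 each), with edgeR adjusted p-values of 0.0298 and 0.00826. The erythroid sum was 2.39 to 2.72 CPM in controls against 1.91 to 2.17 CPM in SPNS2 cells, and the platelet sum 2.86 to 3.09 against 2.07 to 2.55 CPM. The defining markers MS4A1, HBA1, HBB, PF4, PPBP and KRT18 had 0 counts in all 6 libraries. The epithelial sum was 119 to 128 CPM in controls and 141 to 144 CPM in SPNS2 cells, nearly all of it EPCAM, which was called higher in SPNS2; the part of these markers in the results below was not tested.

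The vector row was high in every SPNS2 library and near 0 in every control. SPNS2_optimized had 9, 3 and 0 counts in the empty vector libraries 1 to 3 and 25283, 24792 and 25752 counts in the SPNS2 libraries 1 to 3. These are 0.233, 0.105 and 0 CPM against 780, 789 and 764 CPM (edgeR log2 fold change 12.61 with SE 0.106). The SPNS2 vector added this sequence, so the difference was set by the design and its call is no finding about the cells. Against so few control counts the size of the fold change depends on the prior count, and it was 13.83 with control library 1 left out. In bulk RNA, a larger share of cells with a transcript and more of it per cell cannot be told apart. The vector row took 0.0768% to 0.0791% of all counts of an SPNS2 library. Within the SPNS2 libraries it held 94.0% (exact 95% interval 93.7% to 94.3%), 94.1% (93.8% to 94.4%) and 93.6% (93.3% to 93.8%) of the counts of vector and native SPNS2 together. The share was lowest in library 3, which had the most native counts. The intervals cover counting error only, and those of libraries 2 and 3 met only at their ends (93.83% and 93.85%). Such overlap does not show equal shares, and differences among the shares were not tested. The 2 rows summed to 42.7 ± 2.04 CPM in controls and 828 ± 11.2 CPM in SPNS2 cells (SD, n = 3 each), a ratio of 19.4 between the group means. The length of the vector transcript is not given in the sources used here, so its level per length cannot be set beside that of native SPNS2.

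Of the 10 rows, all 10 passed the filter on low counts, 4 rose, 1 fell and 5 were not called at an adjusted p of 0.05. The vector row is 1 of the 4 that rose, by design, and it passed the filter through the SPNS2 libraries. Among the 9 native rows, SPNS2, SPNS3 and PLPP3 rose and SPHK1 fell, so 4 of 9 (44.4%) were called, against 24.5% of all 13308 features tested. Of all features, 11.9% were called higher and 12.6% lower. The median log2 fold change of the 9 native rows was 0.05, beside 0.0026 over all features tested. The groups did not overlap for 4 of the 9, beside 40.1% of all features. The native changes ran from -0.27 to 0.39 on the log2 scale. The median absolute log2 fold change was 0.105 over all features tested and 0.207 over all features called.

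**Figure D1:**
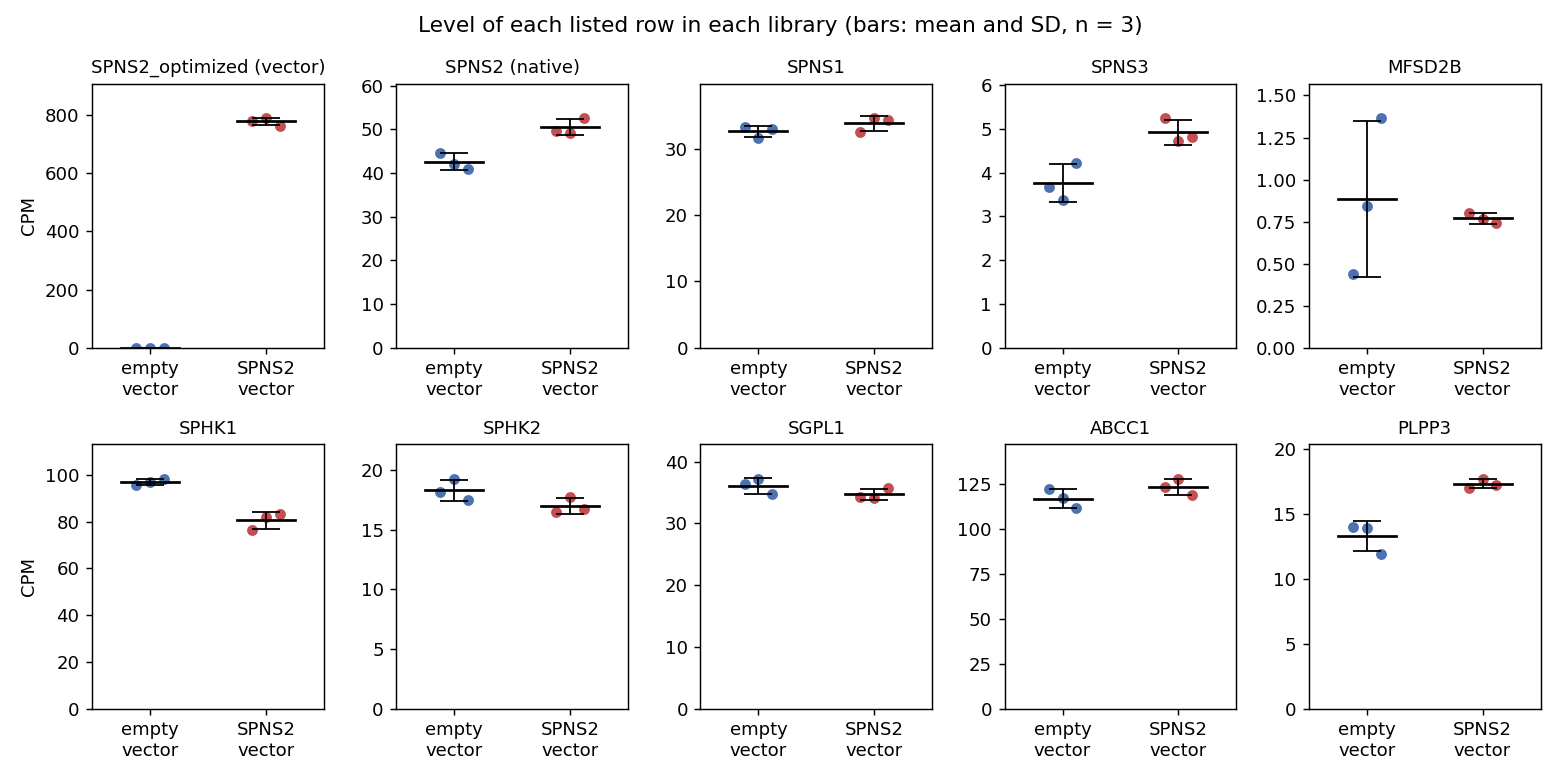
Level in CPM (vertical axis, from 0, with its own scale in each panel) of each of the 10 rows in the 3 empty vector libraries (blue points) and the 3 SPNS2 libraries (red points), with libraries 1 to 3 from left to right and bars for the mean and SD. SPNS2_optimized lies near 0 in the controls and between 764 and 789 CPM with the SPNS2 vector, while native SPNS2, SPNS3, PLPP3 and SPHK1 show smaller gaps between groups that do not overlap.

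Among the exporters, native SPNS2 was the one with a clear rise. Native SPNS2 (ENSG00000183018.9), which carries sphingosine phosphate out of cells, was at 44.7, 42.1 and 40.9 CPM in the empty vector libraries and 49.7, 49.3 and 52.6 CPM in the SPNS2 libraries. Every SPNS2 library was above every control, a 1.19-fold rise (95% interval 1.11 to 1.26; edgeR log2 fold change 0.25 with SE 0.0418 and adjusted p = 0.00166). The difference between the group means was 7.94 CPM, beside a vector level of 778 ± 12.9 CPM (SD, n = 3) in the same libraries. A read shared by vector and native sequence could have gone to either row, and the part of such reads in the rise was not tested.

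Native SPNS2 lies on chromosome 17 between SPNS3 and MYBBP1A in the order of RefSeq protein-coding genes, and in GENCODE 29 its exons overlap exons of MYBBP1A on the opposite strand. MYBBP1A, a nucleolar protein that binds MYB, was at 80.2, 82.7 and 82.1 CPM in controls and 67.9, 68.3 and 68.9 CPM in SPNS2 cells, so it fell (edgeR log2 fold change -0.25 with SE 0.0292 and adjusted p = 0.000142). The library kit keeps strand, but the strand setting of the counting is not given, and without it reads from the overlap could not be told apart. Native SPNS2 and MYBBP1A moved in opposite directions, and the genes beyond SPNS3 were not called: UBE2G1 was at 48.4 ± 0.859 and 49.5 ± 1.96 CPM, and ANKFY1 at 39.4 ± 1.25 and 38.7 ± 0.727 CPM (SD, n = 3 each). The next genes beyond MYBBP1A, GGT6 and SMTNL2, had 32 and 8 counts over all 6 libraries and were not tested.

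SPNS3, the paralog next to SPNS2, was low and rose narrowly. It was at 3.68, 3.37 and 4.22 CPM in controls and 5.24, 4.71 and 4.80 CPM in SPNS2 cells, with groups that did not overlap (1.31-fold, 95% interval 1.09 to 1.57; edgeR log2 fold change 0.39 with SE 0.119 and adjusted p = 0.0356). SPNS3 was not called with DESeq2 (adjusted p = 0.0791) or with low counts kept in (0.0722). Nor was it called when control library 1 (0.0872) or 2 (0.128), or SPNS2 library 1 (0.129), 2 (0.0616) or 3 (0.0739), was left out.

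SPNS1, the third family member, a lysosomal transporter of lysophospholipids, was at 33.2, 31.6 and 33.0 CPM in controls and 32.5, 34.6 and 34.3 CPM in SPNS2 cells. Its groups overlapped, and the interval of the fold change ran from 0.972 to 1.10 (adjusted p = 0.426 by edgeR). Of the 3 SPNS genes, SPNS2 and SPNS3 rose and SPNS1 was not called, but the differences between these changes were not tested.

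The other exporters were not called. MFSD2B, the sphingosine phosphate exporter of red blood cells and platelets, had 17, 24 and 44 counts in the empty vector libraries and 26, 24 and 25 in the SPNS2 libraries. That is 0.441, 0.843 and 1.37 CPM against 0.802, 0.764 and 0.742 CPM, so the spread among the controls spanned all SPNS2 libraries. Its fold change could lie anywhere from 0.516 to 1.51 (95% interval, adjusted p = 0.761), and its log2 fold change was -0.18 with all libraries but 0.30 without control library 3, the highest control. ABCC1, a multidrug transporter that can also export sphingosine phosphate, was at 122, 117 and 112 CPM in controls and 123, 128 and 119 CPM in SPNS2 cells. The ABCC1 groups overlapped, and the interval of 0.994 to 1.12-fold held changes only up to that size (adjusted p = 0.178 by edgeR).

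**Figure D2:**
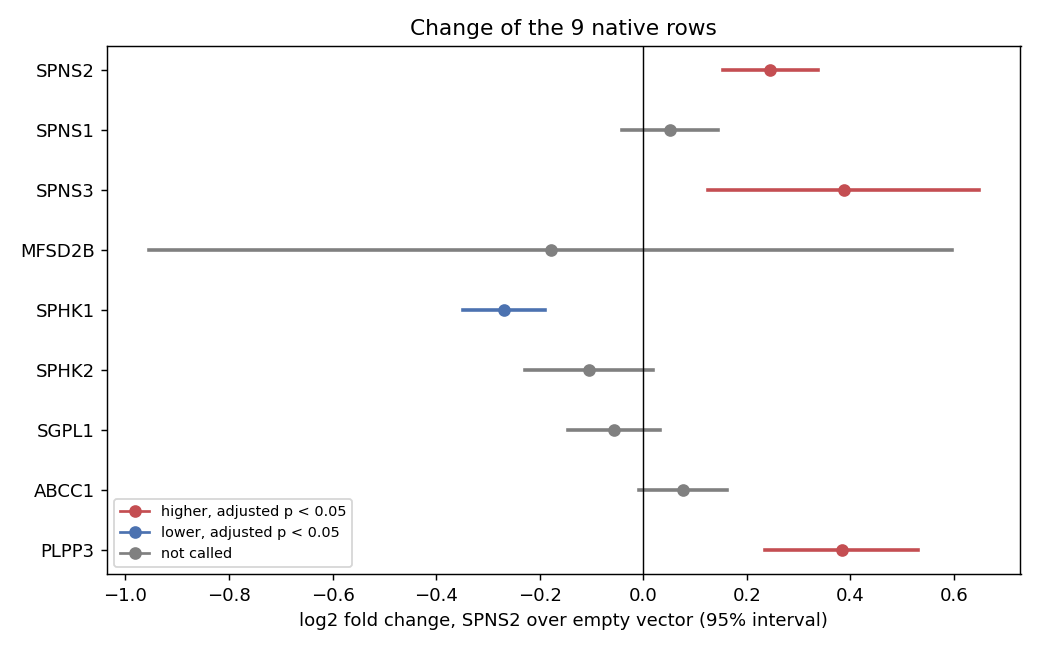
Log2 fold change of the 9 native rows, SPNS2 over empty vector (horizontal axis), with points for the edgeR estimate, lines for its 95% interval and colours for rows called higher (red), lower (blue) or not called (grey). SPNS2, SPNS3 and PLPP3 lie to the right of 0 and SPHK1 to the left at -0.27, and MFSD2B has the widest interval.

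Of the kinases, SPHK1 fell and SPHK2 was not called. SPHK1 (ENSG00000176170.14), the mainly cytosolic kinase that phosphorylates sphingosine, was at 95.9, 97.0 and 98.4 CPM in controls and 76.4, 82.0 and 83.2 CPM in SPNS2 cells. All SPNS2 libraries were below all controls, at 0.830 of the control level (95% interval 0.786 to 0.877; edgeR log2 fold change -0.27 with SE 0.0358 and adjusted p = 0.000362). SPHK2, the kinase found also in the nucleus and mitochondria, was at 18.1, 19.2 and 17.5 CPM in controls and 16.5, 17.7 and 16.8 CPM in SPNS2 cells. Its groups overlapped, and its interval ran from 0.854 to 1.01 of the control level (adjusted p = 0.205 by edgeR). SPHK2 exons overlap DBP and RPL18 on the opposite strand in GENCODE 29, so its counts carry the same doubt about strand, as do those of SPNS1 and SPNS3, whose exons overlap antisense genes.

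SGPL1, the lyase of the endoplasmic reticulum that ends the pathway, was at 36.3, 37.2 and 34.7 CPM in controls and 34.2, 34.1 and 35.7 CPM in SPNS2 cells. The groups overlapped, and the fold change lay between 0.904 and 1.02 (95% interval, adjusted p = 0.357 by edgeR). PLPP3, a membrane phosphatase that dephosphorylates sphingosine phosphate and lysophosphatidic acid at the cell surface, was at 14.0, 13.9 and 11.9 CPM in controls and 17.0, 17.7 and 17.2 CPM in SPNS2 cells. Its groups did not overlap, and it rose 1.30-fold (95% interval 1.18 to 1.44; edgeR log2 fold change 0.38 with SE 0.0671 and adjusted p = 0.00196). Its exons overlap those of AC119674.2 on the same strand in GENCODE 29, and reads could be split between both.

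Ratios of rows within a library do not depend on library size or scaling, and both ratios of kinases were lower with SPNS2. Both hold SPHK1, called lower from the same counts, so they are not independent of that fall or of each other. The counts of SPHK1 were 5.29, 5.04 and 5.63 times those of SPHK2 in the empty vector libraries and 4.64, 4.63 and 4.97 times in the SPNS2 libraries. The difference in mean log2 ratio was -0.16. The summed counts of both kinases were 3.14, 3.12 and 3.34 times those of SGPL1 with the empty vector and 2.72, 2.92 and 2.80 times with SPNS2, a difference of -0.19 in mean log2 ratio. Neither ratio overlapped between groups, and each difference exceeded the larger SD of the log2 ratio within a group (0.0801 and 0.0534). With 3 libraries against 3 the two-sided exact permutation p of both was 0.10, the smallest that this design allows, and it was also 0.10 after adjustment over the 2 ratios. The counts are not corrected for gene length, so the size of a ratio is not a ratio of molecules.

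**Figure D3:**
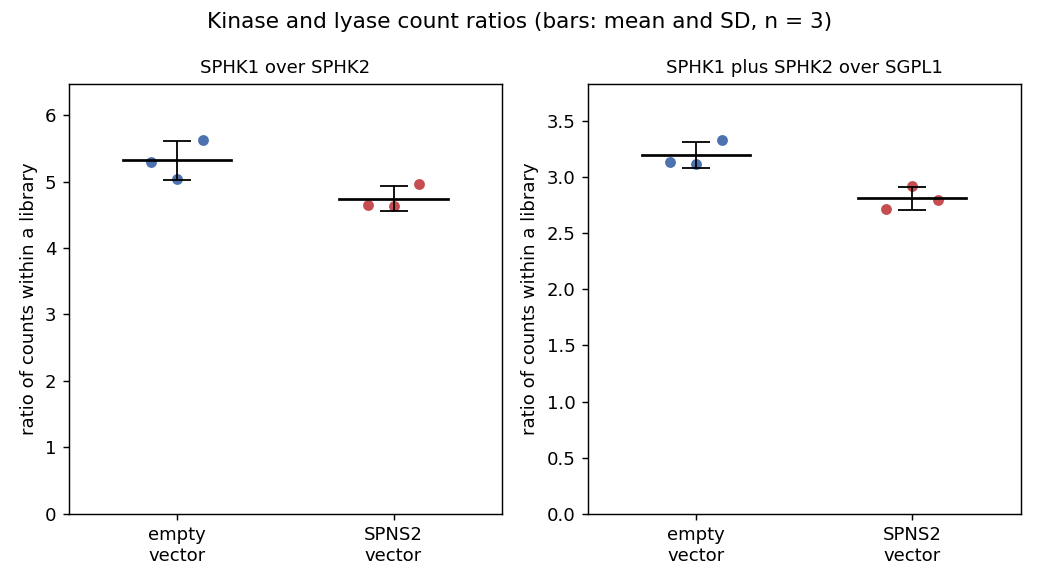
Ratio of counts within each library (vertical axes from 0) for SPHK1 over SPHK2 and for both kinases over the lyase SGPL1, with blue points for empty vector libraries, red points for SPNS2 libraries and bars for the mean and SD of 3. All SPNS2 libraries lie below all empty vector libraries in both panels, from 4.63 to 4.97 against 5.04 to 5.63 and from 2.72 to 2.92 against 3.12 to 3.34.

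Per length, SPHK1 was the most abundant of the 9 native transcripts in these cells. Divided by the longest protein-coding transcript in GENCODE 29, whose transcripts may not be those the authors counted, control levels were 43.4 ± 0.557 CPM per kb for SPHK1, 17.8 ± 0.783 for ABCC1, 14.8 ± 0.391 for SPNS1 and 12.4 ± 0.557 for native SPNS2 (SD, n = 3 each). Below these stood SGPL1 at 6.28 ± 0.221, SPHK2 at 5.93 ± 0.291, PLPP3 at 4.03 ± 0.353, SPNS3 at 1.76 ± 0.201 and MFSD2B at 0.310 ± 0.163 CPM per kb. The SGPL1 and SPHK2 libraries overlapped, and their order turned with the median transcript length, at which SPHK2 was at 6.81 CPM per kb. With the shortest SPHK2 transcript it was at 13.1 CPM per kb, above native SPNS2. The order of the 9 by longest transcript was the same with SPNS2, where SPNS1 at 15.3 ± 0.532 and native SPNS2 at 14.7 ± 0.522 CPM per kb came within their spread of each other.

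The promoters of SPHK1, the native member that fell, and PLPP3, a member that rose, are shown because these 2 enzymes moved in opposite directions. RefSeq sequences were matched for 6 of the 9 native genes. The 250 bases before the start of each, from GRCh38.p14 and 5′ to 3′ on the gene's strand, run over chr17:76382954-76383203 on the plus strand and chr1:56579564-56579813 on the minus strand. Capitals mark a match to the GC box GGGCGG on either strand.

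SPHK1: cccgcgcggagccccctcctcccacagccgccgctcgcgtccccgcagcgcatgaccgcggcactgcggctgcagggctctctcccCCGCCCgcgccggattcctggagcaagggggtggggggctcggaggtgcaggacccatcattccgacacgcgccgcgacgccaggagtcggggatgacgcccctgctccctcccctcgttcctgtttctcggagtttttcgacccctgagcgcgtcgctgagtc

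PLPP3: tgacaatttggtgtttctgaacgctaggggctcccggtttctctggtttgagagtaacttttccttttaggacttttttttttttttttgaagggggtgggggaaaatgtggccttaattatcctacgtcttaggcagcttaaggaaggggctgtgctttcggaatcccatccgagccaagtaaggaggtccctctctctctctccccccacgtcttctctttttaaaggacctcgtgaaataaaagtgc

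The SPHK1 promoter was 72.4% G and C and the PLPP3 promoter 46.0%, beside a median of 58.0% over 35116 promoters of the same length. The SPHK1 window held 1 GC box, 164 bases before the start, and the PLPP3 window held none. Among all promoters, 42.6% held at least 1. Of the other matched genes, which were not called, SPNS1 (65.2% G and C), MFSD2B (71.6%) and SGPL1 (68.8%) held a GC box. SPHK2 (62.8%), also not called, held none. A link between promoter letters and direction of change was not tested. The AP-1 motif TGANTCA, held by 6.57% of promoters, and the ETS motif CCGGAAGT, held by 3.42%, were searched on both strands. Neither stood in the SPHK1 or the PLPP3 window.

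The genes next to these steps were taken from 7 lists of 54 names, of which 52 had a row and 41 passed the filter on low counts. Of the 41, 8 rose, 5 fell and 28 were not called, so 31.7% were called beside 24.5% of all features, and their median log2 fold change was 0.000800. Over all features, 11.9% were called higher and 12.6% lower, with a median log2 fold change of 0.0026. Calls in both directions around a median near 0 were thus not particular to the lists. Leaving out SPNS2 library 1 left 5 list genes that rose, with 2246 of 13519 features called in all, against 3263 of 13308 with all libraries.

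In the list for release of sphingosine, the substrate of the kinases, the ASAH1 transcript rose, while the median log2 fold change of the 3 genes tested was -0.0065. ASAH1, the acid ceramidase of the lysosome, was at 164, 180 and 173 CPM in controls and 228, 222 and 223 CPM in SPNS2 cells (1.30-fold, 95% interval 1.24 to 1.37; log2 fold change 0.38, adjusted p = 2.70e-05 by edgeR). It was the 1 gene called among the 3 tested in this list (33.3%, beside 24.5% of all features). The alkaline ceramidase ACER3 was at 24.1 ± 0.612 and 23.7 ± 1.27 CPM and ACER2 at 1.39 ± 0.259 and 1.38 ± 0.232 CPM (SD, n = 3 each), while ASAH2 and ACER1 had 4 and 53 counts in all and were not tested. The ASAH1 transcript was higher and the SPHK1 transcript lower in the same libraries, ACER2 and ACER3 were not called, and a link between these changes was not tested.

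The other phosphatases and the receptors were not called. PLPP1 was at 1.09 ± 0.220 and 1.04 ± 0.173 CPM and PLPP2 at 0.655 ± 0.105 and 0.791 ± 0.0925 CPM (SD, n = 3 each). SGPP2 had 13 counts in all, and SGPP1 was not analysed here. Among the receptors, S1PR4 was at 53.8, 50.7 and 52.8 CPM in controls and 53.6, 55.3 and 56.4 CPM in SPNS2 cells, with overlapping groups. The 95% intervals of the fold changes were 0.994 to 1.11 for S1PR4, 0.968 to 1.12 for S1PR3 and 0.856 to 1.27 for S1PR2, and the adjusted p-values by edgeR were 0.185, 0.417 and 0.776. S1PR1 had 0 counts in every library, and S1PR5 had 2 counts over the 6.

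Of the other transporters, ABCB1 had the largest change among the 41 tested genes. ABCB1, the drug efflux pump P-glycoprotein, was at 2.15, 1.86 and 1.71 CPM in controls and 4.75, 4.62 and 4.54 CPM in SPNS2 cells, with no overlap (2.42-fold, 95% interval 1.99 to 2.94; edgeR log2 fold change 1.27 with SE 0.129 and adjusted p = 5.86e-05). ABCC2 was at 3.33 ± 0.487 and 3.26 ± 0.160 CPM (SD, n = 3 each), and ABCA1 and ABCG2 had 17 counts and 1 count in all. After the lyase, SELENOI, which makes phosphatidylethanolamine, fell from 40.0 ± 1.29 to 35.3 ± 0.275 CPM (SD, n = 3 each), with an edgeR adjusted p = 0.00494. SELENOI was the 1 gene called of 6 (16.7%, beside 24.5% of all features). ALDH3A2, the aldehyde dehydrogenase that oxidises the lyase product hexadecenal, was at 18.1 ± 1.06 and 16.0 ± 0.921 CPM (SD, n = 3 each), with an edgeR adjusted p = 0.0669. Its groups did not overlap (lowest control 16.9 CPM, highest SPNS2 library 16.8 CPM), and it was called lower when control library 1 was left out (edgeR log2 fold change -0.22, adjusted p = 0.0276).

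Ceramide supply showed 3 rises and 2 falls among 15 tested genes, or 33.3% called, beside 24.5% of all features (11.9% higher and 12.6% lower). SPTLC3, a subunit of serine palmitoyltransferase, rose from 8.87 ± 0.318 to 11.9 ± 0.881 CPM (SD, n = 3 each), with an edgeR adjusted p = 0.00226, while SPTLC1 and SPTLC2 were not called. CERS6, a ceramide synthase, rose by 0.11 and ORMDL1, an inhibitor of serine palmitoyltransferase, by 0.17 on the log2 scale. CERS1, another ceramide synthase, fell by 0.27 and DEGS1, the dihydroceramide desaturase, by 0.25 on the log2 scale. Leaving out control library 3 (adjusted p = 0.0860), SPNS2 library 1 (0.0667) or SPNS2 library 2 (0.0699) removed the call of CERS6. That of ORMDL1 went with control library 1 (adjusted p = 0.0674), control library 2 (0.0622), SPNS2 library 1 (0.0860) or SPNS2 library 3 (0.0852) left out.

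Ceramide use and recycling showed 3 rises and 2 falls among 10 tested genes, or 50% called, against the same 24.5% of all features. SMPD1, the acid sphingomyelinase of the lysosome, rose from 8.74 ± 1.09 to 13.1 ± 0.430 CPM (SD, n = 3 each), 0.58 on the log2 scale, with an edgeR adjusted p = 0.000847. GALC, the lysosomal galactosylceramidase, rose by 0.28 and UGT8, which makes galactosylceramide, by 0.53 on the log2 scale. CERK, which phosphorylates ceramide, fell by 0.12 and SMPD4, a neutral sphingomyelinase, fell by 0.12 on the log2 scale. UGT8 was no longer called when control library 1 was left out (adjusted p = 0.0673), nor when SPNS2 library 1 (0.0671), 2 (0.0505) or 3 (0.0615) was. SMPD4 was no longer called when control library 1 (adjusted p = 0.0799) or 2 (0.101) or SPNS2 library 1 (0.0957) or 2 (0.107) was left out, nor with upper-quartile scaling (0.0511).

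**Figure D4:**
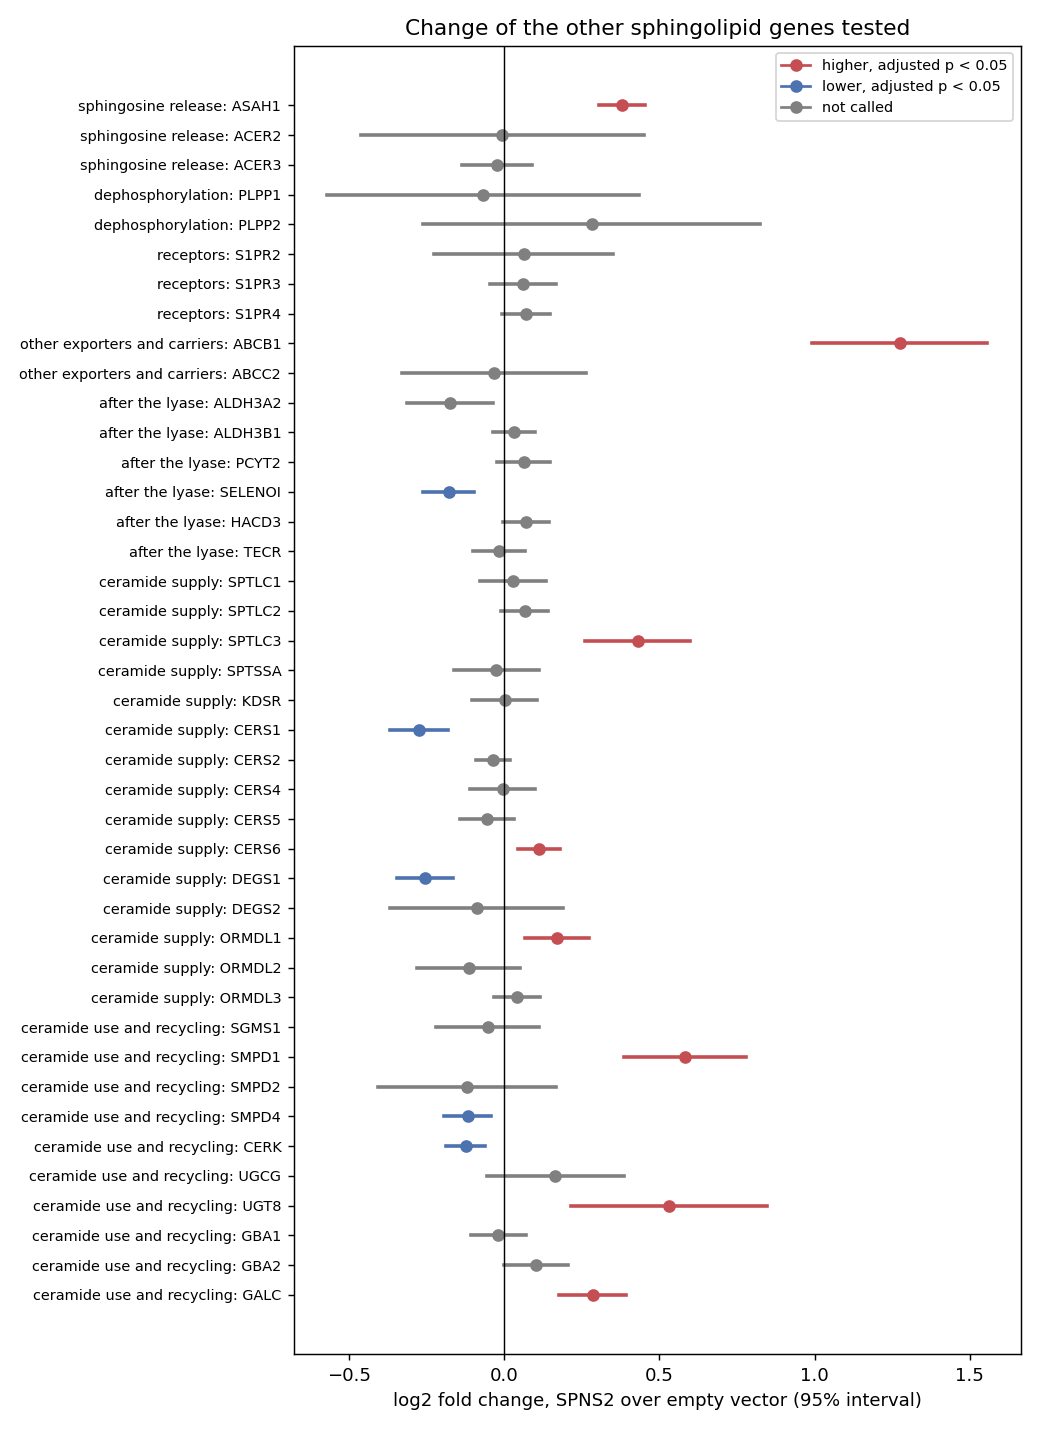
Log2 fold change, SPNS2 over empty vector (horizontal axis), of the 41 tested genes of the 7 lists (rows, each named by list and gene), with points for the edgeR estimate, lines for its 95% interval and colours for genes called higher (red), lower (blue) or not called (grey). ABCB1 lies farthest from 0 at 1.27, and the 8 rises and 5 falls are spread over 5 of the 7 lists.

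Over the 6 libraries, the genes most like native SPNS2 among 8782 with a mean of at least 10 CPM were CTSF, a lysosomal cysteine protease, with a Pearson correlation of log2 CPM of 0.999, ARHGAP25 (0.997) and DPM3 (0.995). CTSF and DPM3 rose by 0.32 and 0.21 on the log2 scale, but ARHGAP25 was not called (edgeR log2 fold change 0.077, adjusted p = 0.0743). The genes most like SPHK1 were HAUS7 (0.999), SLC25A10 (0.997) and SLC29A2 (0.997), which fell by 0.26, 0.12 and 0.23 on the log2 scale. The libraries of these points share their group, and with 6 points and so many genes such correlations are given as a description.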

How the data were processed

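The authors deposited estimated counts for each gene, all of them whole numbers (0 exceptions). Salmon is named, with no version, in the submitters' processing notes; the genome build, the annotation and the summing of transcripts are not given in those sources. RNA had been prepared with a QIAGEN kit and libraries with a stranded TruSeq mRNA kit, per the labels' protocols. Symbols were matched by Ensembl ID for 34329 of 34370 rows. The filter was filterByExpr with a minimum count of 10 and a minimum total of 15, and scaling was by TMM, whose factors ran from 0.993 to 1.01. Group was the single term of an edgeR quasi-likelihood fit (edgeR 4.0.16, R 4.3.3), with Benjamini-Hochberg adjustment over all 13308 features. Levels are CPM with TMM-scaled library sizes. Each SE divides the size of the log2 fold change by the root of its F statistic, and 95% intervals use the fit's degrees of freedom. Intervals of shares are exact Clopper-Pearson intervals. Each ratio had 0.5 added to both counts before the log2 was taken. On simulated counts for this comparison (13194 features), 80.0% of genes changed 1.4-fold and 94.0% of those changed 1.6-fold were recovered, and 6 of 180 calls were false. The changed genes were drawn only from features above a minimum mean count. The largest fold change estimated for a native member was 1.31, below the simulated sizes. These rates therefore do not give the chance of calling the members that were not called.

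All 6 columns were used, 3 per group. Replicates differed beyond sampling noise (chi-square per degree of freedom 2.89 to 5.86), and each was kept as a sample of its own. The members and lists were chosen with earlier results of these data known. All 10 members, every called gene of the lists, and the receptors were named by rule, as were the 3 genes most correlated with native SPNS2 and with SPHK1 (mean of at least 10 CPM, prior count 2). The other genes named were added after their values were seen. Alternatives were RLE and upper-quartile scaling, no filter, a mean of at least 5 CPM, DESeq2 1.42.0, limma voom 3.58.1, removal of the vector row, a replicate block and leaving out each library.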

Additional observations from a re-analysis of the deposited data

How the results depend on the processing

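Among the 10 rows, SPHK1 was the 1 that fell under all 14 alternatives, with log2 fold changes from -0.29 to -0.23. The 4 that rose became 3 without a filter, at a mean of at least 5 CPM (which leaves SPNS3 untested), with DESeq2 and without the vector row (which leaves SPNS2_optimized out by construction), and 3 to 4 without each single library. Calls over all features moved as well, from 3263 of 13308 in the main fit to 3205 of 19355 without a filter. They were 3061 of 9944 at a mean of at least 5 CPM and 2543 of 13308 with DESeq2. Native SPNS2 kept its call throughout (0.22 to 0.28), as did PLPP3 (0.31 to 0.42). The vector row ran from 12.05 to 13.83. Deviations from the group means had correlations of 0.0312, 0.0375 and -0.0193 between same-numbered libraries. Libraries with different numbers were not compared across groups, so these values cannot settle whether the numbers pair the libraries. With the replicate block 3 of the 10 rows rose and 1 fell, and 2723 of all 13308 features tested were called. In that fit SPNS3 had an edgeR adjusted p of 0.0505 (log2 fold change 0.39) and SMPD4 one of 0.0648. The paired difference was -0.16 for SPHK1 over SPHK2 and -0.19 for both kinases over SGPL1. The exact sign-flip p of each was 0.25, the smallest that 3 pairs allow. Without each single library the group differences of these ratios ran from -0.20 to -0.12 and from -0.21 to -0.16. For SPHK1 over SPHK2 the exact permutation p was 0.20 without empty vector library 3, SPNS2 library 1 or SPNS2 library 2. It was 0.10 for the other omissions and for every omission with both kinases over SGPL1. Of the 41 other genes, 5 to 7 rose and 4 to 5 fell without single libraries. In these fits 2246 to 2738 of 13488 to 13525 features tested were called, against 3263 of 13308 with all libraries. The causes were not tested. Direction turned for 2 genes that were not called: MFSD2B (-0.53 to 0.30 over single omissions) and S1PR2 (-0.028 to 0.20), the latter below 0 without empty vector library 2. Of 358 values of 26 named genes under alternatives, 331 kept direction and call, 25 lost the call and 2 turned. Among the 41 other genes, calls were also gained: ALDH3A2 was lower with the replicate block (edgeR adjusted p = 0.0442) and without empty vector library 1 (0.0276), and PCYT2 rose by 0.11 on the log2 scale (edgeR adjusted p = 0.0303) with empty vector library 1 omitted.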
